A study of Mus musculus with 12 samples.

Results

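Interferon beta and the receptors through which type I and type II interferons act were followed in bone marrow-derived macrophages (BMDM) stimulated with lipopolysaccharide (LPS). The 5 genes were Ifnb1, Ifnar1, Ifnar2, Ifngr1 and Ifngr2. They were taken by symbol from the 43280 genes of the deposited table. All 5 reached 1 CPM, the share of a library's reads scaled to 1e6 reads, in at least 2 libraries, as did 12086 genes of the table, and were tested. Ifnb1 reached this level only in libraries given LPS.

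Interferon beta is the type I interferon that a macrophage makes when Toll-like receptor 4 binds LPS and signals through the adaptor TRIF to the transcription factor IRF3. Secreted interferon beta binds IFNAR1 and IFNAR2 on the same and on neighbouring cells, and the kinases TYK2 and JAK1 then activate transcription factors, STAT2 and IRF9 among them, that switch on antiviral genes. Interferon gamma, made mostly by T cells and NK cells, uses a separate receptor of IFNGR1, which binds the ligand, and IFNGR2, and signals through the kinases JAK1 and JAK2.

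The BMDM came from C57BL6 mice that were wild type (wt) or Treml4-/-, a knockout of an immunoglobulin-like receptor of myeloid cells. Bone marrow cells of both genotypes were grown with M-CSF, and the macrophages were then given vehicle (PBS; M0) or LPS at 100 ng/mL for 8 h (M1-8 h) or 12 h (M1-12 h). The labels name LPS alone for these libraries, while the study names LPS/IFNγ for M1 macrophages in another of its experiments. Each of the 6 conditions had 2 libraries, called biological replicates in the labels, and whether these came from separate mice is not stated, so p-values measure the spread between these libraries.

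Between 48008751 and 58500792 reads were counted per library, so 1 read was worth 0.0171 to 0.0208 CPM. Treml4 had 3.95 to 13.2 CPM in the 6 wt libraries and 0 reads in all 6 Treml4-/- libraries, as labelled. All 8 macrophage markers were tested, with a summed level of 20712 to 27907 CPM at M0 and 9996 to 13416 CPM after LPS. Lists of markers of T cells, B cells, NK cells, dendritic cells, plasmacytoid dendritic cells, fibroblasts and mast cells each summed to at most 9.18 CPM in every library, and the neutrophil list to at most 102.7 CPM.

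Ifnb1 (ENSMUSG00000048806) is a 750-bp gene without introns on the minus strand of chromosome 4, at 88522025 to 88522774 of GRCm38. Its promoter is known for a compact array of elements bound by IRF, NF-kappaB and ATF/Jun factors, and is shown here because its gene went from almost no reads to many. In the RefSeq promoter (GRCm38.p6, chr4:88522861-88523014, minus strand, from 220 to 67 bases before the RefSeq start), capitals mark matches on either strand to an IRF core (AANNGAAA), a kappaB motif (GGGANNTTCC) and a TATA motif (TATAAA):
Ifnb1: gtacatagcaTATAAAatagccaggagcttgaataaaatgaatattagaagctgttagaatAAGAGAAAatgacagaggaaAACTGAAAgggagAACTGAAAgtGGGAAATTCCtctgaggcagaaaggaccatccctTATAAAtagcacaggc
The stretch held 3 IRF cores, 1 kappaB motif and 2 TATAAA matches, and none overlapped another. Of the 32851 RefSeq mouse promoters of 250 bases before the start, 21.3% held an IRF core, 1.21% the kappaB motif and 12.4% TATAAA. A match describes the letters and was not tested for binding. GC content was 39.6%, against a median of 52.4% over all these promoters.

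Ifnb1 was nearly silent in M0, was highest at 8 h of LPS among the times sampled and was lower again at 12 h, in both genotypes. Times between M0 and 8 h were not sampled, so the time of its maximum is not known. At M0 it had 1 read in replicate 1 and 0 reads in replicate 2 of each genotype. After 8 h it had 8.98 and 14.9 CPM in wt (445 and 801 reads; 11.9 ± 4.16, SD, n = 2) and 8.03 and 7.70 CPM in Treml4-/- (470 and 421 reads; 7.87 ± 0.234, SD, n = 2). After 12 h it had 0.940 and 1.79 CPM in wt and 1.04 and 1.11 CPM in Treml4-/-. The 4 libraries at 8 h lay above all others, the 4 libraries at 12 h lay between, and the time points did not overlap. The markers of plasmacytoid dendritic cells, a rich source of type I interferon, were also highest at 8 h. Their 4 genes summed to 0.747 to 1.20 CPM at M0, 4.30 to 5.54 at 8 h and 1.23 to 1.5 at 12 h. Of the 4 genes 1 was tested, and Klk1 had at most 3 reads in each library. The dendritic cell list also went from 0.669 to 0.856 CPM at M0 to between 4.12 and 7.61 at 8 h, and lay between 2.53 and 5.74 at 12 h. The part of the markers of either list in the result was not tested. In a bulk library fewer cells that make the transcript and less of it per cell cannot be told apart.

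From the pooled reads Ifnb1 was 1237 times higher at M1-8 h than at M0 in wt (exact 95% counting interval 222 to 48915) and 807 times higher in Treml4-/- (145 to 31929), intervals that are wide because only 1 read stood at M0. The fall from 8 h to 12 h was 8.89-fold in wt and 7.29-fold in Treml4-/-. These intervals cover counting error only. On the scale of log2(CPM + 1), which understates changes of low genes, the rise at 8 h was 3.64 ± 0.206 (SE) in wt, with an adjusted p of 1.95e-08 by limma with Benjamini-Hochberg adjustment, and 3.13 ± 0.206 in Treml4-/- (adjusted p = 6.53e-08). Levels at 12 h remained above M0 by 1.20 in wt (adjusted p = 0.000184) and 1.04 in Treml4-/- (adjusted p = 0.000575). Ifnb1 passed the filter for testing through its LPS libraries alone, so these p-values against M0 are not independent of that filter.

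Ifnb1 was the interferon gene whose reads could be followed. Of the 20 other interferon ligand genes in the table, 15 had no read in any library, and the others had at most 3 reads in any 1 library. The 14 alpha interferon genes together had 8 reads over the 12 libraries, against 2392 for Ifnb1. Alpha interferon genes are near copies of each other, so reads shared between them may not have been counted, and their counts are uncertain. Ifng, the gene of interferon gamma, had 1 read in all. Among the cell types known to make it, the 5 T cell markers summed to 4.33 to 6.13 CPM at M0 and at most 1.53 CPM after LPS, and 3 of them (Cd3e, Cd3g and Cd8a) had at most 3 reads in each library. The 4 NK cell markers went from 0.405 to 0.826 CPM at M0 to between 4.49 and 9.18 CPM after LPS. Nearly all of this was Klrk1, an activating receptor gene that had 0 to 2 reads at M0 and 231 to 498 reads after LPS, while Ncr1 and Eomes had at most 3 reads in each library.

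**Figure D1:**
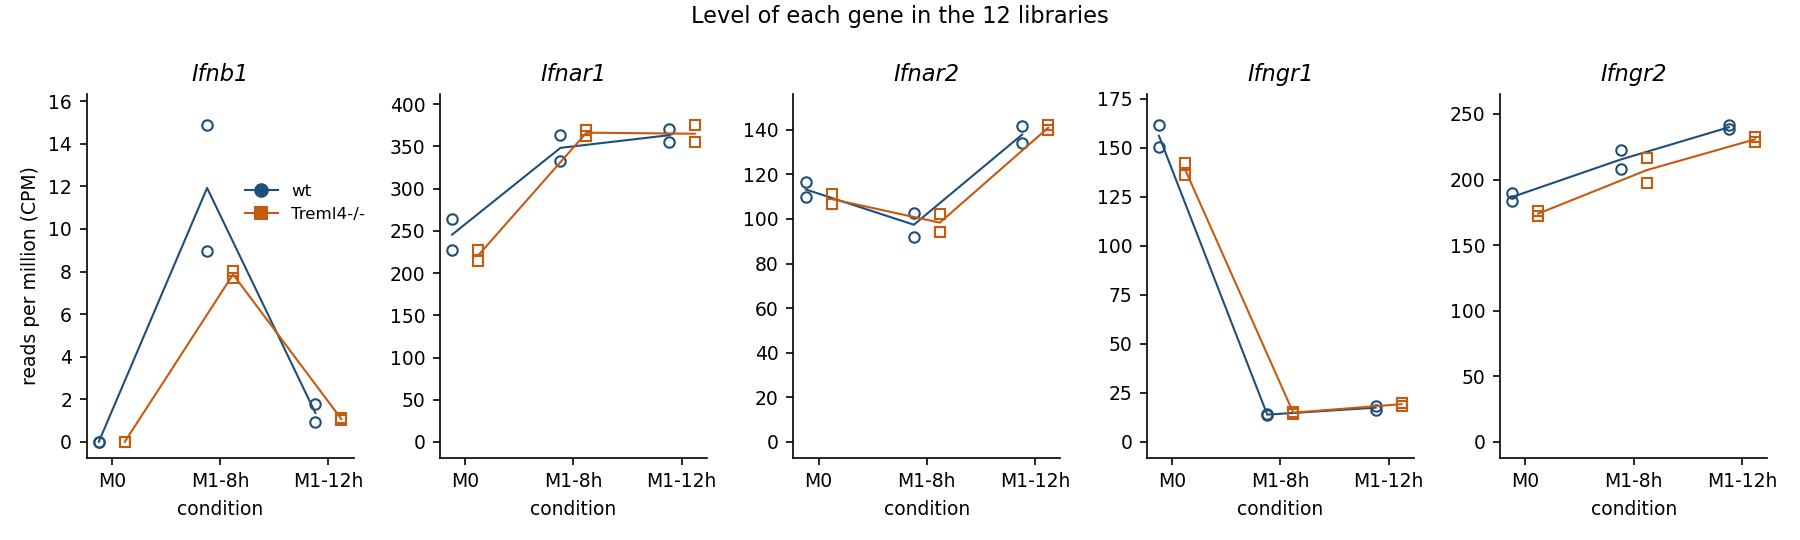
Level of each gene in CPM (y axis, linear from 0) at M0, M1-8 h and M1-12 h (x axis). Each circle is a wt library, each square a Treml4-/- library and lines join the means. Of the times sampled Ifnb1 was highest at 8 h (7.70 to 14.9 CPM). Ifngr1 fell from 135.9 or more to 20.0 CPM or less, and the other receptor genes moved far less.

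The type I receptor genes did not move together. Ifnar1 (ENSMUSG00000022967, chromosome 16, 91485238 to 91507441, plus strand), the signalling chain bound by TYK2, was higher at both times of LPS. Ifnar2 (ENSMUSG00000022971, chromosome 16, 91372783 to 91405589, plus strand), the chain that binds ligand most tightly and carries STAT2, was higher at 12 h than at 8 h. Exons of Ifnar2 overlap those of Gm21970, a protein-coding gene on the same strand that had 0 reads in all 12 libraries, so the Ifnar2 level depends on how shared reads were assigned.

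Ifnar1 had 264.3 and 226.8 CPM in the wt libraries before LPS, 363.6 and 332.9 after 8 h and 370.8 and 355.5 after 12 h. In Treml4-/- it had 213.9 and 227.8, then 369.7 and 362.7, then 375.1 and 354.8 CPM. The 4 M0 libraries lay below the 8 LPS libraries, and the 8 h and 12 h libraries overlapped. By limma with Benjamini-Hochberg adjustment the rise at 8 h was 0.51 ± 0.0906 (SE) on the log2 scale in wt (adjusted p = 0.000274) and 0.73 ± 0.0906 in Treml4-/- (adjusted p = 1.42e-05). At 12 h the rise was 0.57 in wt (adjusted p = 0.000109) and 0.72 in Treml4-/- (adjusted p = 1.50e-05). The rises in wt stood close to the 1.4-fold minimum. At 8 h the wt value was 0.40 without wt M0 replicate 2 and 0.44 without wt M1-8 h replicate 1, and at 12 h it was 0.46 without wt M0 replicate 2, all under that minimum.

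Ifnar2 had 116.7 and 109.7 CPM in the wt libraries before LPS, 102.7 and 92.0 after 8 h and 134.2 and 141.4 after 12 h. Its Treml4-/- libraries had 106.7 and 111.1, then 102.3 and 94.3, then 142.0 and 139.6 CPM. In both genotypes the 8 h libraries were the lowest and the 12 h libraries the highest, without overlap within a genotype. The rise from 8 h to 12 h was 0.50 ± 0.0846 (SE) in wt (adjusted p = 0.000702 by limma) and 0.52 ± 0.0846 in Treml4-/- (adjusted p = 0.000579). This call rested on single libraries: the value dropped under the 1.4-fold minimum in wt without M1-8 h replicate 2 (0.42) or M1-12 h replicate 2 (0.46), and in Treml4-/- without M1-8 h replicate 2 (0.46). Against M0 the log2 difference at 8 h was -0.22 in wt and -0.15 in Treml4-/-, and neither was a differentially expressed gene (DEG), here an adjusted p under 0.05 and a change of at least 1.4-fold.

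The interferon gamma receptor showed the larger split. Ifngr1 (ENSMUSG00000020009, chromosome 10, 19591949 to 19610229, plus strand) fell steeply at 8 h, while Ifngr2 (ENSMUSG00000022965, chromosome 16, 91547072 to 91565623, plus strand), its partner, did not fall. Their promoters are shown because the genes of 1 receptor moved apart. Capitals mark the GC box (GGGCGG, read as CCGCCC where it lies on the opposite strand) and the kappaB motif, in Ifngr1 from 250 bases to 1 base before the RefSeq start (chr10:19591699-19591948) and in Ifngr2 from 85 to 10 bases before it (chr16:91546974-91547049), both on the plus strand of GRCm38.p6:
Ifngr1: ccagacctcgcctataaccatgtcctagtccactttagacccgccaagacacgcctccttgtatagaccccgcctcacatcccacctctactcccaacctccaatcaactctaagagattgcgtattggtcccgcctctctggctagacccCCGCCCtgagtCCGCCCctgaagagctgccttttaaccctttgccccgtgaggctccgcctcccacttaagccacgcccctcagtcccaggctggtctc
Ifngr2: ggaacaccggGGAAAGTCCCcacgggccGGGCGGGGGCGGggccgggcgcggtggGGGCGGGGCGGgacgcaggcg
Ifngr1 held 2 GC boxes, and Ifngr2 held 4, of which the last pair overlapped by 1 base, beside 1 kappaB motif. A GC box occurred in 32.7% of the RefSeq promoters. The IRF core was found in Ifnb1 alone among the 5 promoters, Ifnar2 held 1 GAS motif (TTCNNNGAA, in 7.02% of promoters), Ifnar1 held 2 GC boxes, and the AP-1 motif TGANTCA (in 6.75%) was in none of these windows. GC content was 59.2% in Ifngr1 and 74.0% in Ifngr2.

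Ifngr1 had 150.6 and 161.5 CPM in the wt libraries before LPS, 13.5 and 14.4 after 8 h and 16.4 and 18.5 after 12 h. In Treml4-/- it had 135.9 and 142.1, then 15.5 and 14.4, then 20.0 and 18.6 CPM. Every M0 library lay far above every LPS library. The summed macrophage markers also fell, from 20712 CPM or more to 13416 CPM or less, and their part in the result was not tested. Pooled reads fell 11.2-fold at 8 h in wt and 9.30-fold in Treml4-/-, and stood 8.93-fold and 7.24-fold under M0 at 12 h. By limma with Benjamini-Hochberg adjustment Ifngr1 fell by 3.39 on the log2 scale (SE 0.0954) at 8 h in wt (adjusted p = 8.07e-11) and by 3.13 in Treml4-/- (adjusted p = 1.61e-10). The falls at 12 h were -3.09 (adjusted p = 1.80e-10) and -2.79 (adjusted p = 4.44e-10). Between 8 h and 12 h the level differed by 0.31 in wt (adjusted p = 0.0221) and 0.35 in Treml4-/- (adjusted p = 0.0119), both under 1.4-fold.

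Ifngr2 had 183.9 and 189.6 CPM in the wt libraries before LPS, 222.5 and 208.0 after 8 h and 241.4 and 238.3 after 12 h. Its Treml4-/- libraries had 172.3 and 175.8, then 216.7 and 197.7, then 228.6 and 232.7 CPM. The order M0, 8 h, 12 h held within each genotype without overlap. The log2 differences from M0 were 0.20 and 0.25 at 8 h and 0.36 and 0.40 at 12 h, in wt and Treml4-/- in that order. By limma the adjusted p ran from 0.0263 at 8 h in wt and 0.00976 in Treml4-/- to 0.000915 and 0.000395 at 12 h, yet none reached 1.4-fold.

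In each of the 4 comparisons of LPS with M0, Ifnb1 and Ifnar1 were DEG in the higher direction and Ifngr1 in the lower direction. Of all 12086 genes tested, 16.3% were higher and 60.6% lower at 8 h in wt, and 17.7% and 58.1% in Treml4-/-. At 12 h 16.2% of genes were higher and 60.4% lower in wt, and 16.1% and 59.6% in Treml4-/-. Between 8 h and 12 h, Ifnb1 fell by 2.44 in wt (adjusted p = 6.89e-06 by limma) and by 2.09 in Treml4-/- (adjusted p = 1.88e-05), and Ifnar2 rose. In that comparison 14.0% of genes were higher and 17.6% lower in wt, and 12.9% and 19.4% in Treml4-/-. A fall was thus the commonest call for a gene after LPS, and the share of genes with a higher call was far smaller.

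Scaling bore on these directions. The median gene was lower after LPS by -0.74 and -0.70 on the log2 scale at 8 h and by -0.77 and -0.74 at 12 h, in wt and Treml4-/- in that order. Relative to the median gene at 8 h in wt, Ifnb1 stood at 4.38, Ifnar1 at 1.25, Ifngr2 at 0.95, Ifnar2 at 0.53 and Ifngr1 at -2.65. Scaling by the median of ratios moved the median gene to between -0.05 and -0.03 and made all 5 genes DEG in all 4 comparisons. Under it Ifnar2 at 8 h turned to 0.62 in wt (adjusted p = 2.85e-05 by limma) and 0.60 in Treml4-/- (adjusted p = 3.80e-05), while Ifngr1 still fell, by 2.57 and 2.40. By library totals the share of DEG that were higher was 21.2%, 23.4%, 21.2% and 21.3%, for 8 h in wt and Treml4-/- and 12 h in wt and Treml4-/-. In the same order it was 50%, 48.8%, 49.9% and 49.9% by the median of ratios and 43.2%, 43.6%, 45.0% and 45.5% after quantile normalization. The rise of Ifnb1 and the fall of Ifngr1 were DEG under all 3 scalings, whereas Ifnar1 at 8 h in wt was 0.38 and under 1.4-fold after quantile normalization.

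**Figure D2:**
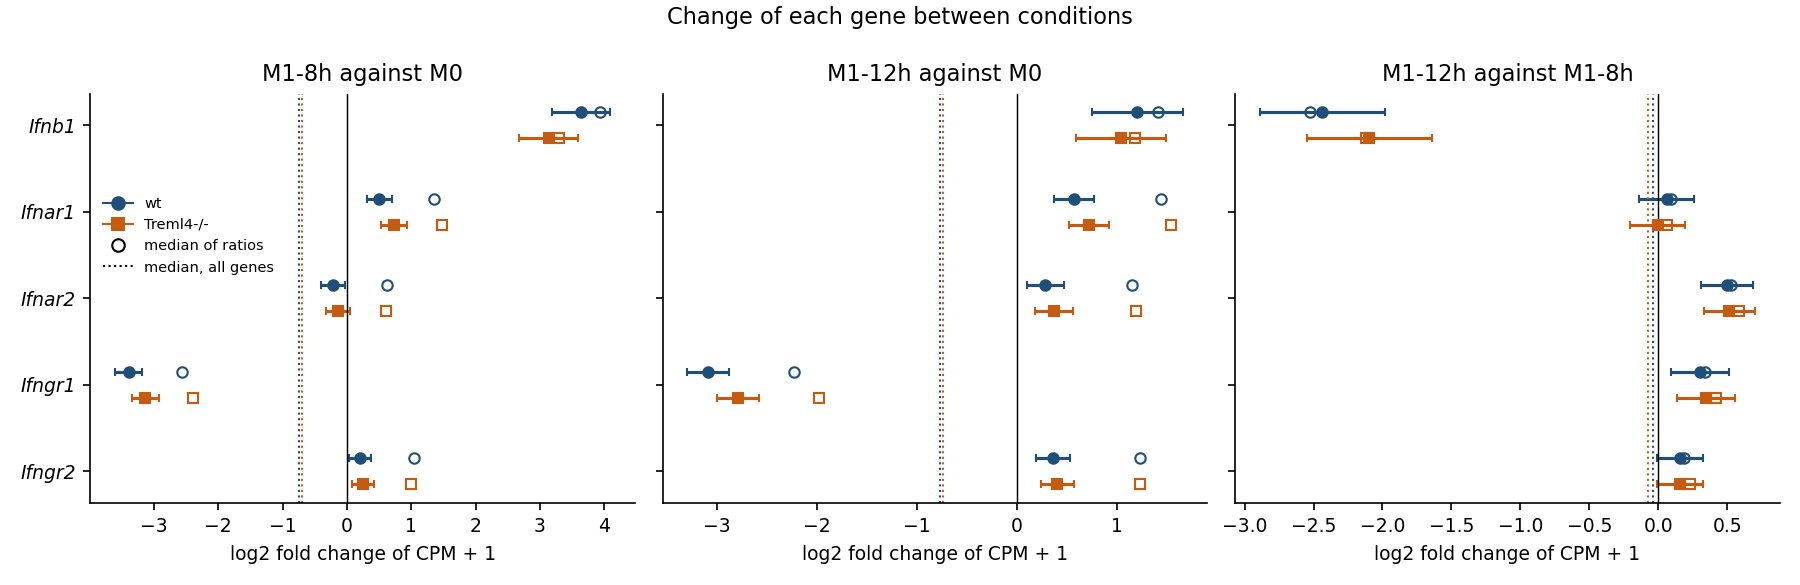
Log2 fold change of CPM + 1 (x axis) for each gene (y axis) in 3 comparisons of time points. Filled symbols with bars are the values scaled by library totals with 95% intervals, and open symbols the values by the median of ratios. Circles are wt, squares Treml4-/- and dotted lines the median of all genes tested. At 8 h Ifngr1 lay at -3.39 and -3.13 by library totals. Ifnar2 then lay at -0.22 and -0.15 by library totals and at 0.62 and 0.60 by the median of ratios.

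Ratios between the chains of a receptor do not depend on the factor by which a library is scaled. Per kb of exon, Ifngr2 over Ifngr1 was 0.923 and 0.887 in the wt libraries at M0, 12.5 and 10.9 at 8 h and 11.1 and 9.72 at 12 h. In Treml4-/- it was 0.958 and 0.935, then 10.5 and 10.4, then 8.65 and 9.47. By this length, which joins all annotated exons of a gene, the transcripts were near parity at M0, and Ifngr2 exceeded Ifngr1 in each LPS library. Parity and the order of genes depend on the length used. The change of a ratio between time points does not. Ifnar1 over Ifnar2 was 1.27 and 1.16 in wt at M0, 1.98 and 2.03 at 8 h and 1.55 and 1.41 at 12 h, and in Treml4-/- 1.12 and 1.15, then 2.02 and 2.16, then 1.48 and 1.42. It was highest at 8 h and intermediate at 12 h in both genotypes, without overlap of time points.

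**Figure D3:**
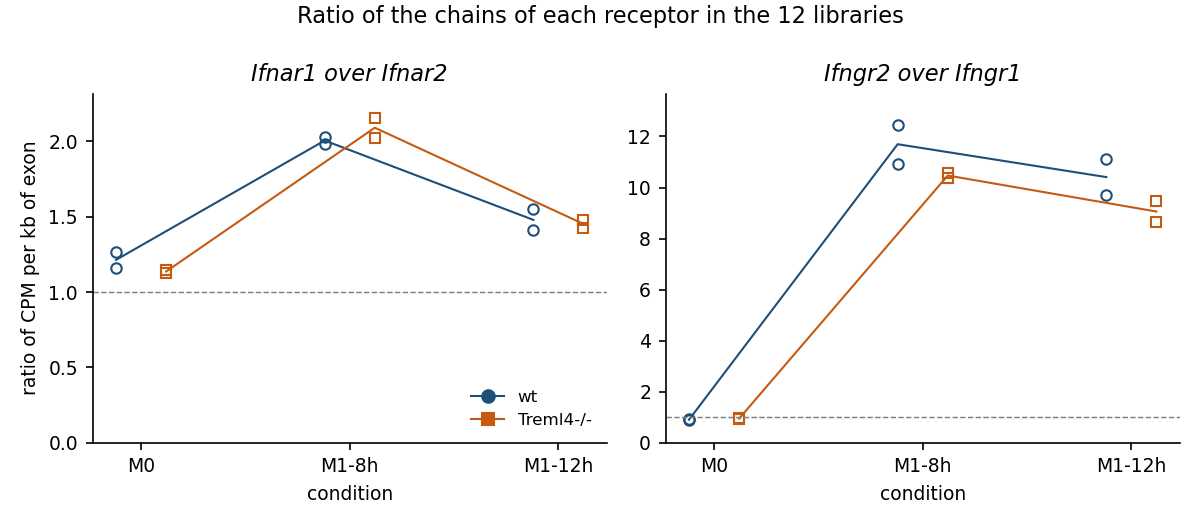
Ratio of CPM per kb of exon (y axes, linear from 0) of the chains of the type I receptor (left) and of the interferon gamma receptor (right) at each time point (x axes). Circles are wt libraries, squares Treml4-/- libraries, lines join the means and the dashed line marks equal levels. Ifngr2 over Ifngr1 lay from 0.887 to 0.958 at M0 and from 8.65 to 12.5 after LPS. Ifnar1 over Ifnar2 was highest at 8 h (1.98 to 2.16) of the times sampled.

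The order of the 5 genes changed with LPS. In wt at M0, levels in CPM per kb of exon were 54.8 ± 2.70 (SD, n = 2) for Ifngr1, 49.6 ± 1.06 for Ifngr2, 41.3 ± 4.46 for Ifnar1, 34.0 ± 1.49 for Ifnar2 and 0.0129 for Ifnb1. At 8 h the order was Ifnar1 at 58.6 ± 3.65, Ifngr2 at 57.1 ± 2.72, Ifnar2 at 29.3 ± 2.28, Ifnb1 at 15.9 ± 5.55 and Ifngr1 at 4.90 ± 0.215. At 12 h it was Ifngr2 at 63.7, Ifnar1 at 61.1, Ifnar2 at 41.4, Ifngr1 at 6.14 and Ifnb1 at 1.82. The libraries of Ifnar1 and Ifngr2 overlapped at 8 h, and the other neighbours in these orders did not. Ifngr1 thus moved from the top of the order to its lower end, from rank 826 to rank 4574 of 11547 genes with a known length at 8 h in wt, while Ifnb1 rose from rank 11423 to rank 2231. The Treml4-/- libraries had the same order at M0 and 8 h, and at 12 h differed only in Ifnar1 (61.4) and Ifngr2 (61.2), whose libraries overlapped.

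None of the 5 genes was a DEG between wt and Treml4-/- at any time point by limma, or by voom on the recovered reads. The shares of all genes that were DEG were also small, at 0.0993% at M0, 0.0910% at 8 h, 0.132% at 12 h and 0.414% for the average over time points. The widest gap was that of Ifnb1 at M1-8 h, where both wt libraries (8.98 and 14.9 CPM) lay above both Treml4-/- libraries (8.03 and 7.70 CPM). Its log2 difference was 0.51 (95% interval 0.05 to 0.96) with an adjusted p of 0.21 by limma (Benjamini-Hochberg). Its unadjusted p was under 0.05, as was that of 2539 genes in all. Pooled reads of Ifnb1 were 1.53 times higher in wt (exact 95% counting interval 1.4 to 1.67), an interval that leaves out the spread between replicates. The difference rested on 1 library, since it was 0.17 without wt M1-8 h replicate 2 (adjusted p = 0.71) and 0.84 without wt M1-8 h replicate 1 (adjusted p = 0.116). At 12 h the Ifnb1 libraries of the genotypes overlapped, with a difference of 0.16 (interval -0.29 to 0.62).

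Receptor genes differed less between genotypes. At M0 both wt libraries lay above both Treml4-/- libraries for Ifngr1 (150.6 and 161.5 against 135.9 and 142.1 CPM) and Ifngr2 (183.9 and 189.6 against 172.3 and 175.8 CPM). The log2 differences were 0.16 (95% interval -0.05 to 0.38) for Ifngr1 and 0.10 (-0.07 to 0.27) for Ifngr2, each with an adjusted p of 1 (limma with Benjamini-Hochberg adjustment). After LPS the wt libraries of Ifngr1 were the lower ones, by -0.09 at 8 h (adjusted p = 0.579) and -0.13 at 12 h (adjusted p = 0.828). For Ifngr2 the difference was 0.06 at 8 h, with overlapping libraries, and 0.06 at 12 h, when both wt libraries again lay above both Treml4-/- libraries. Ifnar1 and Ifnar2 differed by 0.15 and 0.06 at M0, by -0.07 and -0.01 at 8 h and by -0.01 and -0.03 at 12 h, with overlapping libraries each time. Averaged over the time points the differences were 0.22 for Ifnb1 (interval -0.04 to 0.48), 0.07 for Ifngr2 (-0.03 to 0.17) and between -0.02 and 0.02 for the other receptor genes. The intervals of these averages treat all libraries as independent, and whether a replicate number marks a shared culture is not stated. The split of all DEG changed with scaling here too, from 36.4% higher in wt at 8 h to 60% by the median of ratios and 54.5% by quantile normalization, from 37.5% to 60% and 62.5% at 12 h, and from 20% to 52.0% and 50% for the average. In the same order these are shares of few genes, with 11, 15 and 11 DEG at 8 h, 16, 20 and 16 at 12 h and 50, 50 and 40 for the average.

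The response to LPS itself was compared between genotypes. None of the 5 genes passed in these differences of differences, in which 0.00827% of all genes were DEG for 8 h against M0, 0.00827% for 12 h against M0 and 0% for 12 h against 8 h. The 1 DEG in each of the first comparisons was Pydc3, named after its values were seen. Voom called 0 of the 5 as well, and 806, 462 and 388 of all genes had an unadjusted p under 0.05 by limma. For Ifnb1 the difference of the 8 h response was 0.51 (95% interval -0.13 to 1.15, adjusted p = 0.736 by limma). For Ifngr1 it was -0.26 at 8 h (interval -0.56 to 0.04) and -0.30 at 12 h (interval -0.60 to -0.002), and the latter was the 1 value of the 5 genes with an unadjusted p under 0.05 (adjusted p = 0.999 by limma).

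Several receptor-proximal signalling genes rose with LPS. Of 6 tested, 3 were DEG at 8 h in both genotypes (Jak2, Stat2 and Stat3, all higher) and 5 at 12 h, when Tyk2 and Irf9 were added, and 0 were lower. The list's median was 1.53 in wt and 1.4 in Treml4-/- at 8 h, against -0.74 and -0.70 for all genes. Of all genes, 16.3% and 17.7% were higher at 8 h and 16.2% and 16.1% at 12 h, in wt and Treml4-/-. Jak2, the kinase of IFNGR2, had 26.7 and 21.9 CPM in wt at M0 and 416 and 554 at 8 h. Stat2, which binds IFNAR2, had 72.5 and 63.6 CPM and then 955 and 947. Jak1, the kinase that the receptors share, was not a DEG, at 277 and 249.0 CPM and then 300.5 and 354. Chains and kinases of 1 receptor thus moved in different directions, with Jak2 higher by 4.26 and Ifngr1 lower by 3.39 on the log2 scale at 8 h in wt.

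Inhibitors of receptor signalling rose more often than they fell. Of 10 tested, 7 were higher at 8 h in wt and 6 in Treml4-/-, 6 and 5 were higher at 12 h, and 1 (Pias1 at 12 h in wt) was lower, a direction that turned by the median of ratios, under which all 10 were higher at 8 h in wt. The list's median was 1.28 and 1.14 at 8 h and 1.08 and 0.83 at 12 h. Of all genes, 16.3% and 17.7% were higher at 8 h and 16.2% and 16.1% at 12 h, in wt and Treml4-/-. Socs1, which blocks JAK kinases at both receptors, went from 0.579 and 0.708 CPM in wt at M0 to 219.9 and 206.3 at 8 h, a log2 change of 7.03. Usp18, which binds IFNAR2 and displaces JAK1, went from 6.94 and 5.90 to 908 and 905 CPM, and Socs3 rose by 6.31. The phosphatase genes Ptpn1 and Ptpn2 rose by 0.92 and 1.64.

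Genes that lead from TLR4 to Ifnb1 moved in both directions. Of 20 tested, 8 were higher and 4 lower at 8 h in wt, and 8 and 3 at 8 h in Treml4-/-. The counts were 8 and 3 at 12 h in wt and 7 and 2 at 12 h in Treml4-/-. Medians were 0.21, 0.16, 0.09 and 0.17 in that order. Of all genes, 16.3%, 17.7%, 16.2% and 16.1% were higher and 60.6%, 58.1%, 60.4% and 59.6% lower in the same comparisons. Irf7, an interferon-induced amplifier of type I interferon genes, had 38.6 and 40.1 CPM in wt at M0, 1872 and 1927 at 8 h and 3516 and 3739 at 12 h. Irf3, the factor present before stimulation, fell from 37.0 and 37.9 to 19.1 and 21.2 CPM at 8 h. Irf7 was thus still rising between 8 h and 12 h, when Ifnb1 fell. The kinase genes Tbk1 and Ikbke rose by 1.03 and 1.04 at 8 h in wt. The lower calls of Tlr4, Crebbp and Ticam2 turned direction under another scaling. By the median of ratios 14 of the 20 were higher and 1 lower at 8 h in wt, and 0 were lower in the other 3 comparisons. The lower call of Irf3 was lost at 8 h and at 12 h in both genotypes, and that of Jun at 8 h in Treml4-/-.

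Genes known from the type I interferon response rose throughout, and the part of the receptor in this was not tested. All 14 tested were higher in both genotypes at both times, where 16.1% to 17.7% of all genes were higher. The 14 were higher under all 3 scalings, with medians of 7.08 and 6.98 at 8 h and 7.56 and 7.31 at 12 h. Cxcl10, a chemokine gene, rose by 9.15 and Mx1, an antiviral GTPase gene, by 8.50 at 8 h in wt. From 8 h to 12 h 5 of them rose further in wt (Ifit1, Ifit3, Rsad2, Cmpk2 and Ifi44) and 1 (Oasl1) fell, and 2 rose in Treml4-/- (Rsad2 and Ifi44). The counts of the genotypes were not tested against each other. Of 7 genes known from the interferon gamma response, 6 were higher in each of the 4 comparisons, among them Cxcl9 (11.24 at 8 h in wt), Gbp2 (8.15) and Ido1 (3.67), and Ciita, the master regulator of MHC class II genes, was lower in 3 of the 4, a direction that turned under either other scaling at 8 h in wt and at 12 h in Treml4-/- but not at 12 h in wt. Several of them also respond to interferon beta or NF-kappaB.

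Other receptor genes moved in their own ways. Of 8 other class II cytokine receptor genes 4 were tested. Il10ra (1.41) and F3 (3.01) were higher at 8 h in wt, where 16.3% of all genes were higher. Il10rb, the shared chain of the IL-10 receptor and a neighbour of Ifnar1 and Ifnar2 on chromosome 16, was lower at 8 h (-1.18 in wt, -0.99 in Treml4-/-) and did not differ by the call at 12 h (-0.15 and -0.05). By the median of ratios 0 of these 4 genes were lower at 8 h in either genotype and all 4, Il10rb included, were higher at 12 h. Of 10 genes for turnover of the type I receptor, 1 was higher and 3 lower at 8 h in wt, 2 and 1 in Treml4-/-, and 0 and 4 in both at 12 h, with medians of -0.22, -0.11, -0.08 and -0.13. Prkd2, a kinase that marks IFNAR1 for ubiquitination, fell by 1.11 in both genotypes at 8 h, and at 12 h the lower calls included Cul1, Stam and Vps35. By the median of ratios 0 of the 10 were lower in each of the 4 comparisons, so the lower call of Prkd2 was lost as well, and the values of Cul1, Stam and Vps35 turned direction. No gene of these lists was a DEG between genotypes at M0, 8 h or 12 h.

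**Figure D4:**
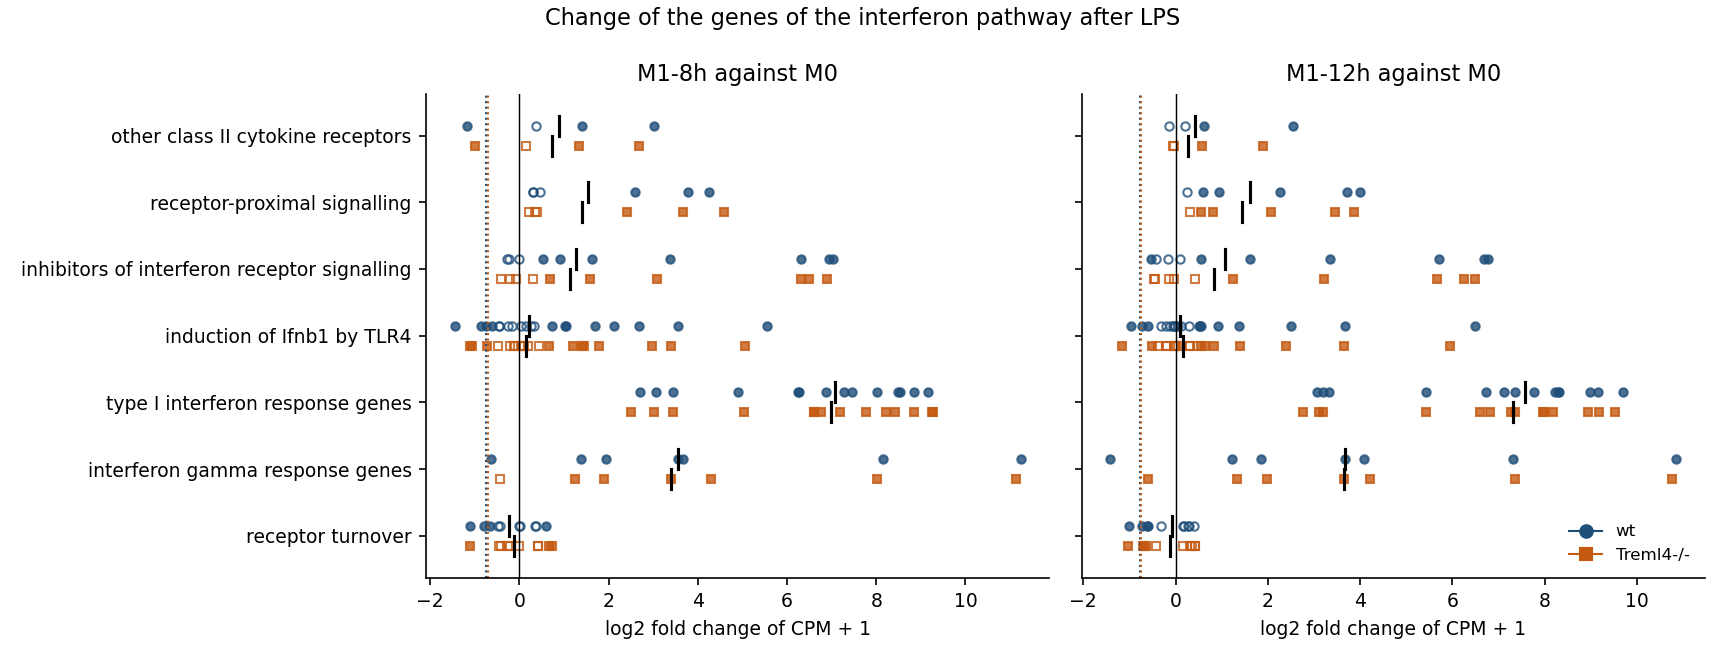
Log2 fold change of CPM + 1 (x axis) of each tested gene of 7 lists (y axis) at M1-8 h (left) and M1-12 h (right) against M0. Circles are wt and squares Treml4-/-, filled symbols are DEG, black ticks are list medians and dotted lines the medians of all genes: the 14 type I response genes lay to the right of 0 in every comparison, while the induction list spread to both sides with medians of 0.09 to 0.21.

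The genes most like each of the 5 over the 12 libraries were named by Pearson's r of log2(CPM + 1), as a description, since the points share libraries and 3 time points. Ifnb1 was most like Fst (r = 0.999) and Sbds (0.998), and Fst went from 0 CPM in wt at M0 to a mean of 21.4 at 8 h and 2.02 at 12 h. Ifngr1 was most like Nxpe4, Lpar5, Mbp, Chst3 and Dagla (each 0.999), which also fell steeply, Mbp from 240.1 to 9.85 CPM in wt at 8 h. Ifnar1 was most like Dcun1d3 (0.987), Ifnar2 like Eaf1 (0.968) and Ifngr2 like Zswim4 (0.971). Among the 5 genes, r was -0.956 for Ifnar1 and Ifngr1, 0.879 for Ifnar1 and Ifngr2, -0.826 for Ifngr1 and Ifngr2 and 0.227 for Ifnar1 and Ifnar2.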

How the data were processed

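RNA-seq was run on 12 BMDM libraries (poly(A), stranded, 126-bp paired ends). Per the labels the authors aligned reads to mm10 with STAR, and per the methods counted them on genes with Subread. The deposited values are log2 CPM with a prior count of 0.25 reads. Whole reads were recovered for 100.0% of values (within 0.01 read), and CPM were computed from them. Depth was 48008751 to 58500792 reads, and the floor was 3 reads.

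log2(CPM + 1) was tested with limma 3.58.1 (R 4.3.3; trend in the prior variance, 1 mean per condition, all 12 libraries) for genes with 1 CPM in 2 libraries. Calls (DEG) needed a change of 1.4-fold and p under 0.05 after Benjamini-Hochberg adjustment across the 12086 genes. The fit was tested on simulated data. Replicates differed by more than sampling noise and were kept apart in the fits. Ratios of pooled reads joined the replicates of a condition, and their exact intervals cover counting error only. The 5 genes and the gene and marker lists were chosen with earlier results of these data known. Named genes were the 5, any member of these lists, their 5 most correlated genes and Treml4. Pydc3, Gm21970 and the neighbours of the 5 genes were named outside this rule. Positions and exon lengths came from GENCODE M21 (GRCm38) and promoters from RefSeq (GRCm38.p6). Whether the authors counted by strand is not given in the sources used here. Alternatives covered pseudocount, filters, scaling, replicate block, variance model and single libraries left out. Python 3.11.15 with pandas 2.3.3 made the tables. In the receptor-proximal list 1 gene is not reported here.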

Additional observations from a re-analysis of the deposited data

How the results depend on the processing

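Over 1475 alternative values of the 5 genes, 1457 stayed called or not called as before, and for Ifnb1 and Ifngr1 all 295 each did. Values that were not called could change sign. Between wt and Treml4-/-, Ifnb1 at M1-12 h ran from -0.10 to 0.42 and Ifngr1 at M1-8 h from -0.15 to 0.03. Ifnar2 at M1-8 h against M0 reversed by the median of ratios, to 0.62 in wt and 0.60 in Treml4-/-. Of the 5 genes, 3 were called in each comparison of LPS with M0, and 5 by the median of ratios in all 4 comparisons, 5 without a minimum fold change at 8 h in wt and at 12 h in both genotypes, and 5 after quantile normalization at 12 h in Treml4-/-. Leaving out single libraries gave 1 to 2 calls for 12 h against 8 h in either genotype.

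Counts over all genes between genotypes moved more. At M0 they were 12, 7 with only the libraries compared and 7 to 220 with single libraries left out. At 8 h they were 11, 7 without a filter, 5 with only the libraries compared and 8 to 599 with single libraries left out. At 12 h they were 16, 7 without a filter, 8 with only the libraries compared, 10 by voom and 6 to 79 with single libraries left out. For the average they were 50, 119 without a minimum fold change, 78 with a pseudocount of 0.1 CPM, 17 without a filter, 31 with a filter at 5 CPM and 21 to 183 with single libraries left out. For the difference between genotypes of 8 h against M0 the count was 1, 2 without a filter, 0 on log2 CPM as deposited, 0 by voom and 1 to 3 with single libraries left out. For 12 h against M0 it was 1, 2 after quantile normalization, 0 as deposited, 0 by voom and 1 to 33 with single libraries left out. The cause was not tested.

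The labels do not say that a replicate number marks a shared mouse or day, and it was not taken to pair the libraries: correlations of their deviations ran from -0.272 to 0.462 over 15 pairs of conditions. With the replicate block by number, 12 genes were called between genotypes at 8 h against 11 without it, and the block changed no call of the 5 genes. With the pairing crossed at M0, chosen after seeing the data, 421 genes were called at 8 h. Voom on recovered reads was also added after seeing the data. edgeR and DESeq2 were not run, since the deposited values are log2 CPM. Ifnb1 at M0 rested on 1 read in each genotype, which limits how closely its rise can be given.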

Other observations

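Ifnar2, Il10rb, Ifnar1 and Ifngr2 lie in a row on mouse chromosome 16, and the genes around them moved in both directions. Within 200 kb of the interval from Ifnar2 to Ifngr2 there were 12 other protein-coding genes, of which 9 were tested. At M1-8 h against M0, 1 of them (Itsn1, an endocytic scaffold) was higher and 5 were lower in each genotype, among them Il10rb and Gart, an enzyme gene of purine synthesis, where 16.3% and 17.7% of all genes were higher and 60.6% and 58.1% lower. Their median log2 difference was -0.72 in wt and -0.50 in Treml4-/-, next to -0.74 and -0.70 for all genes. By the median of ratios 4 were higher and 3 lower in wt, and the signs of Son in wt and Atp5o in Treml4-/- turned, though neither was then called. From 8 h to 12 h, when Ifnar2 rose, 4 of the 9 were higher (Il10rb, Donson, Cryzl1 and Itsn1) and 1 was lower (Gart) in both genotypes, where 14.0% and 12.9% of all genes were higher. Of the 5 other protein-coding genes within 100 kb of Ifnb1, 4 were matched in the table by symbol (alpha interferon genes, at most 2 reads in any library), and these and the 1 within 100 kb of Ifngr1 (Il22ra2, at most 1 read) did not reach the level needed for a test.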
